A study of Homo sapiens with 6 samples.

Results

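Transcript levels of 10 immediate-early transcription factors, EGR1, EGR2, EGR3, EGR4, NR4A1, NR4A2, NR4A3, SRF, KLF4 and KLF6, were followed in rhabdomyosarcoma cells exposed to an HSP70 inhibitor. The members were taken by gene name, and all 10 were found among the 55401 gene names of each library. RMS13 is a human cell line of the alveolar type of rhabdomyosarcoma, a tumour of muscle lineage, and RMS13-R is a line derived from it that is resistant to MAL3-101, a small-molecule inhibitor of HSP70 chaperones. The 3 groups, each with libraries A and B, were resistant RMS13-R cells with 10 µM MAL3-101, parental RMS13 cells with 10 µM MAL3-101, and parental RMS13 cells with the vehicle DMSO. All were exposed for 9 h in medium with serum. The titles of the DMSO samples also carry the name MAL3-101, whereas their descriptions give DMSO alone, and the descriptions were followed for every DMSO value below. Untreated RMS13-R cells were not used here, and so the line and its response to MAL3-101 cannot be told apart. Whether RMS13-R is a single clone, and whether libraries A and B came from separate cultures, is not given in the sources used here, and p-values therefore measure only the spread between these libraries.

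Immediate-early genes are switched on rapidly by growth factor, stress or calcium signals, without new protein synthesis, and many of their transcripts are short-lived. SRF (serum response factor) sits on CArG boxes in many of their promoters together with ternary complex factors that ERK phosphorylates, and with the myocardin-related factors it drives muscle and cytoskeletal genes. EGR proteins are zinc finger activators held in check by the NAB corepressors, NR4A proteins are orphan nuclear receptors often induced through CREB at CRE sites, and KLF4 and KLF6 are zinc finger factors of the Krüppel-like family.

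Promoter sequences are shown for EGR1, EGR2 and SRF because these were the members with a CArG box in a RefSeq promoter window, while their transcripts moved by very different amounts. Each run is the 250 bases before a start site, 5′ to 3′ on the gene's strand, from RefSeq on GRCh38.p14, and capitals mark CArG boxes (CC, then 6 of A or T, then GG) and TGACG, the core of a CRE, on either strand.
EGR1, chr5:138465229-138465478, plus strand: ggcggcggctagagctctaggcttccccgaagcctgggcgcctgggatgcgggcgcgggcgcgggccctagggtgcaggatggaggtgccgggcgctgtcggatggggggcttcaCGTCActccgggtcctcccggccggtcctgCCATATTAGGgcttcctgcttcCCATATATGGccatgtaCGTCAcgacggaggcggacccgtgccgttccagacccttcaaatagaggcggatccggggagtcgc
EGR2, chr10:62816367-62816616, minus strand, the most downstream of its windows: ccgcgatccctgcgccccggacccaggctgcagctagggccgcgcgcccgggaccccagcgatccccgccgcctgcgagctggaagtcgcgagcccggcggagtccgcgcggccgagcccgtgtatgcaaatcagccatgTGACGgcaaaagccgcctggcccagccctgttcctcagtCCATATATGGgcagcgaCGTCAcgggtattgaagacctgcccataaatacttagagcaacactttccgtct
SRF, chr6:43171019-43171268, plus strand: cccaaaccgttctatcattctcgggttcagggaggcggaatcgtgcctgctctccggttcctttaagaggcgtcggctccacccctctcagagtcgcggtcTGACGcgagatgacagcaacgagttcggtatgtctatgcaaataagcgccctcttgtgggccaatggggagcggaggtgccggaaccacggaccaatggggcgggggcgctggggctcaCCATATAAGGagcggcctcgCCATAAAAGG

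The EGR1 run held 2 CArG boxes, with their first bases at -105 and -83 from the start, and TGACG sites at -135 and -66. The EGR2 run held a CArG box at -71 and TGACG sites at -110 and -54. The SRF run held 2 CArG boxes, at -30 and -10, and a TGACG site at -149. Windows of 300 bases, from 250 before to 50 after a start, were on hand for 8 of the 10 members. A CArG box on either strand was present in 1.29% of all 35116 such windows, and only 11 windows held 2 or more. The EGR1 and SRF windows were among those 11. TGACG sites were present in 24.6% of windows, and 6.02% of windows held 2 or more. The windows of EGR4, NR4A3 and KLF4 held 2, 4 and 2 of them, while those of NR4A1 and KLF6 held none. No member window held the full CRE TGACGTCA, found in 1.85% of all windows. The EGR site GCGNGGGCG, found on either strand in 9.43% of windows, stood in windows of EGR1, EGR2, SRF, KLF4 and KLF6. These matches describe letters only.

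Levels are in TPM, a length-corrected share of all transcripts that keeps no read depth. Libraries held between 13918 and 14334 genes at 1 TPM or more. At least a 2-fold difference in TPM + 1 between libraries A and B was seen for 171 of 15148 tested genes with DMSO. It was seen for 67 in parental and 40 in resistant cells with MAL3-101. The muscle lineage factors MYOD1 and MYOG and the muscle filament gene DES stood above 300 TPM in every library, while MYF5 was at 0 and MYF6, PAX7 and MYH8 did not pass 0.23 TPM. Of 11 muscle lineage markers tested, 5 were lower and 4 higher in resistant than in parental cells with the drug. Of all tested genes, 34.8% were lower and 21.3% higher there. CHRNA1 had -2.60 (SE 0.08, adjusted p = 1.51e-06 by limma) and MYOD1 -0.56 (SE 0.04, adjusted p = 4.18e-05). With the drug in parental cells 5 markers fell and 1 rose, beside 18.2% and 22.6% of all tested genes. In resistant cells against DMSO 6 markers were lower and 3 higher, beside 29.7% and 20.9%. Without any 1 of the resistant or parental MAL3-101 libraries the 4 higher calls became 2, and without parental MAL3-101 library A or B the 5 falls became 3. Without DMSO library A or B the rises became 3 or 2. PTPRC, the pan-leukocyte marker, was at or below 0.06 TPM throughout, and the endothelial marker VWF at or below 0.24 TPM. Summed epithelial markers stood at 18.9 to 20.8 TPM in resistant cells, 55.3 to 55.9 TPM in parental cells with MAL3-101 and 25.5 to 31.3 TPM with DMSO. Of these 12 markers 4 were tested, all higher with the drug in parental cells and all lower in resistant than in parental cells with the drug, although only 1 rise was called without parental MAL3-101 library A or B. CDH1 (E-cadherin) did not pass 0.43 TPM in any library. Summed fibroblast markers stood at 174 to 176 TPM in resistant cells, 73.0 to 75.1 TPM in parental cells with MAL3-101 and 87.8 to 92.9 TPM with DMSO, with LUM and THY1 at 0 in both resistant libraries. COL3A1 made up most of the resistant sum, at 134 TPM in resistant cells, 15.6 TPM in parental cells with MAL3-101 and 30.4 TPM with DMSO. Of 6 fibroblast markers tested, 4 were called lower and 2 higher in resistant than in parental cells with the drug, against the direction of the sum. Summed endothelial markers stood at 21.4 to 23.4 TPM in resistant cells, mostly from TEK, 2.66 to 3.10 TPM in parental cells with MAL3-101 and 3.42 to 3.62 TPM with DMSO. Mitochondrial ribosomal RNA made up 0.767% to 0.784% of TPM in resistant cells, 1.92% to 1.97% in parental cells with MAL3-101 and 0.533% to 0.565% with DMSO. The part of these marker genes in the results was not tested.

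With MAL3-101, parental cells had higher levels of EGR1, EGR2, NR4A1, NR4A3, KLF4 and KLF6 than with DMSO, while SRF moved little and NR4A2 did not pass the test. Resistant cells with the drug had lower levels of all of these, NR4A2 included, than parental cells with the drug, SRF by a margin that 10 of 16 other settings did not call. Set against parental cells with DMSO, resistant cells had less EGR1 and NR4A2 and more EGR2 and NR4A1. Fold changes are on the scale of log2(TPM + 1), where weakly expressed genes show too small a change, and a gene was called at a Benjamini-Hochberg adjusted p under 0.05 over 15148 genes in limma's moderated test. The members tested were the 8 whose mean reached 1 TPM in any group, which leaves out EGR3 and EGR4. The comparisons share libraries, so their values are given side by side. In bulk libraries, fewer cells expressing a gene and less RNA per cell cannot be told apart.

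For parental MAL3-101 against DMSO, 7 of 8 tested members were called higher and 0 lower, where 40.8% of all tested genes were called, 22.6% higher and 18.2% lower. For resistant against parental MAL3-101, 8 of 8 were called lower, where 56.1% of all tested genes were called, 34.8% lower and 21.3% higher. For resistant MAL3-101 against parental DMSO, 3 were called higher and 2 lower, where 50.6% of all tested genes were called, 20.9% higher and 29.7% lower. Scaling bears on these backgrounds. For resistant against parental MAL3-101, higher calls made up 38.0% of all calls as deposited, 49.3% after median-ratio scaling and 50.7% after upper-quartile scaling.

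**Figure D1:**
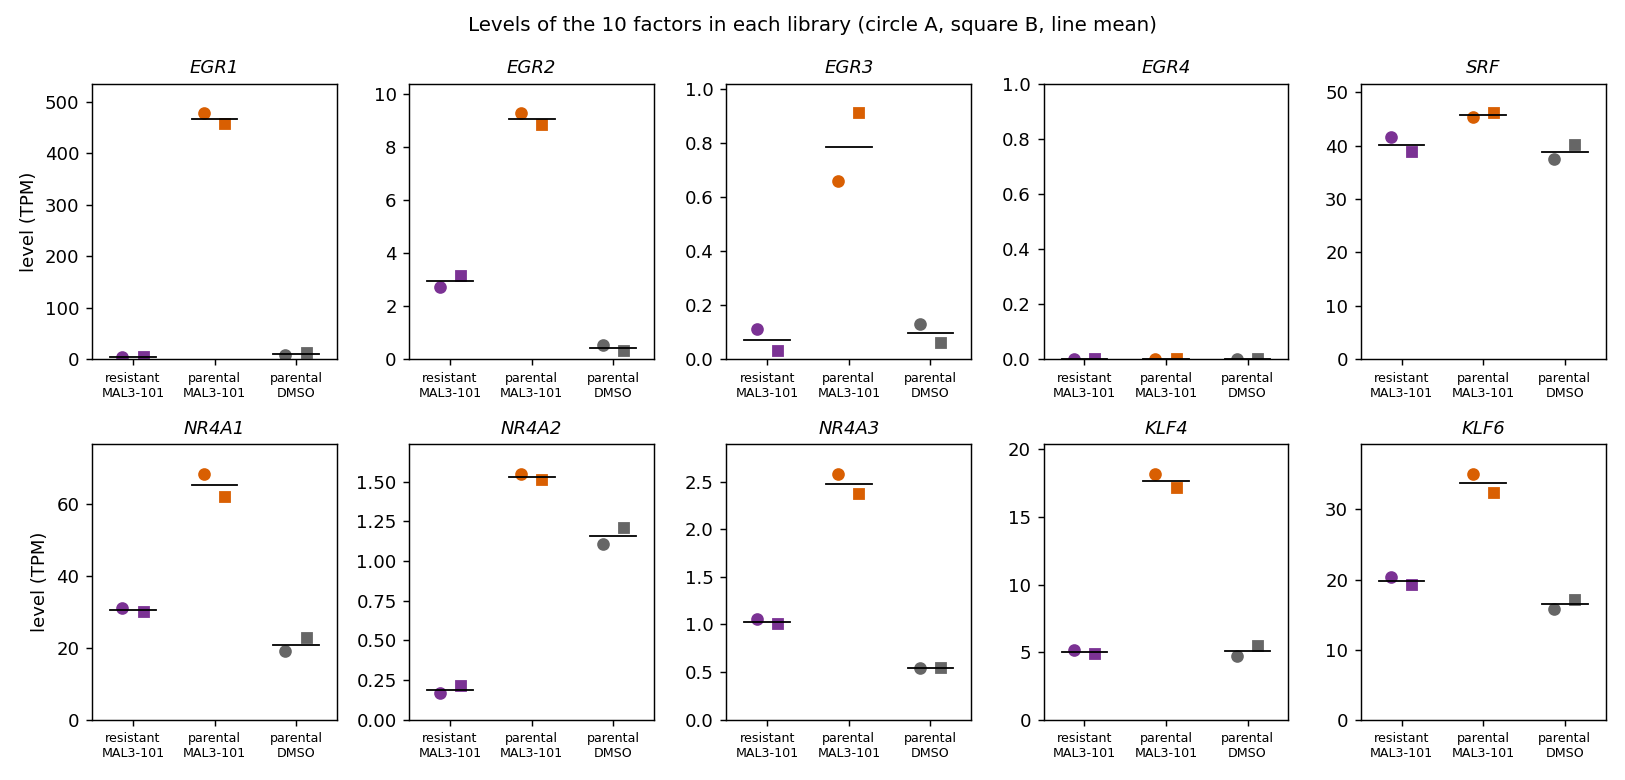
Level in TPM (vertical axis, starting at 0 and scaled per gene) of each of the 10 factors in the 6 libraries, circles for library A, squares for B and lines for the mean of 2. Parental libraries with MAL3-101 sit highest for every factor above 0, SRF by a small margin, and EGR1 reaches 478 TPM there against 3.69 to 11.2 TPM elsewhere.

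EGR1, widely used as a readout of ERK signalling to the nucleus, stood at 3.69 and 3.90 TPM in resistant cells with MAL3-101, 477.88 and 455.88 TPM in parental cells with MAL3-101, and 8.06 and 11.23 TPM in parental cells with DMSO. Only the parental drug libraries were high, and both resistant libraries lay below both DMSO libraries. The mean of parental cells with the drug was 48.4 times the DMSO mean, and log2(TPM + 1) rose by 5.47 (SE 0.13, adjusted p = 9.56e-07 by limma), the second-ranked rise among 15148 genes. Resistant against parental cells with the drug gave -6.61 (SE 0.13, adjusted p = 6.65e-07), the first-ranked fall in that comparison, with a mean 123 times lower. Resistant cells against DMSO gave -1.13 (SE 0.13, adjusted p = 0.00043), or 0.393 times the DMSO mean. Of genes at 1 TPM or more, 19.3% and 19.7% stood below EGR1 in the resistant libraries, 98.4% and 98.3% in parental libraries with the drug and 32% and 39.7% with DMSO.

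EGR2, best known for its roles in Schwann cell myelination and hindbrain patterning, stood at 2.74 and 3.14 TPM in resistant cells with MAL3-101, 9.29 and 8.84 TPM in parental cells with MAL3-101, and 0.53 and 0.29 TPM in parental cells with DMSO. Resistant libraries lay between the other groups, without overlap. Parental cells with the drug had 2.84 (SE 0.15, adjusted p = 3.3e-05 by limma) against DMSO, or 22.1 times the mean TPM, and a pseudocount of 0.1 TPM in place of 1 gave 4.21. Resistant cells had -1.35 (SE 0.15, adjusted p = 0.000268) against parental cells with the drug. Against DMSO they had 1.49 (SE 0.15, adjusted p = 0.000213), and 2.61 with the smaller pseudocount, the opposite sign to EGR1.

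EGR3, which in mice is needed for muscle spindles, was detected at traces of 0.11 and 0.03 TPM in resistant cells with MAL3-101, 0.66 and 0.91 TPM in parental cells with MAL3-101, and 0.13 and 0.06 TPM in parental cells with DMSO. Its parental drug libraries were the highest, and the other groups overlapped. It entered the test only without the filter on low values, over 30480 genes, where limma gave 0.70 (SE 0.10, adjusted p = 0.0115) for parental MAL3-101 against DMSO. The same fit gave -0.74 (SE 0.10, adjusted p = 0.0052) for resistant against parental MAL3-101 and -0.03 (SE 0.10, adjusted p = 0.889) for resistant MAL3-101 against DMSO. EGR4, the remaining paralogue, was listed at 0 in all 6 libraries.

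EGR1 made up a smaller part of the family's summed TPM in the resistant line. Its share was 56.4% and 55.2% in resistant libraries, 98.0% and 97.9% in parental libraries with MAL3-101, and 92.4% and 97.0% with DMSO, the remainder being mostly EGR2. The family summed to 6.54 and 7.07 TPM in resistant cells, 488 and 466 TPM in parental cells with the drug, and 8.72 and 11.6 TPM with DMSO. These shares are a description and were not tested.

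**Figure D2:**
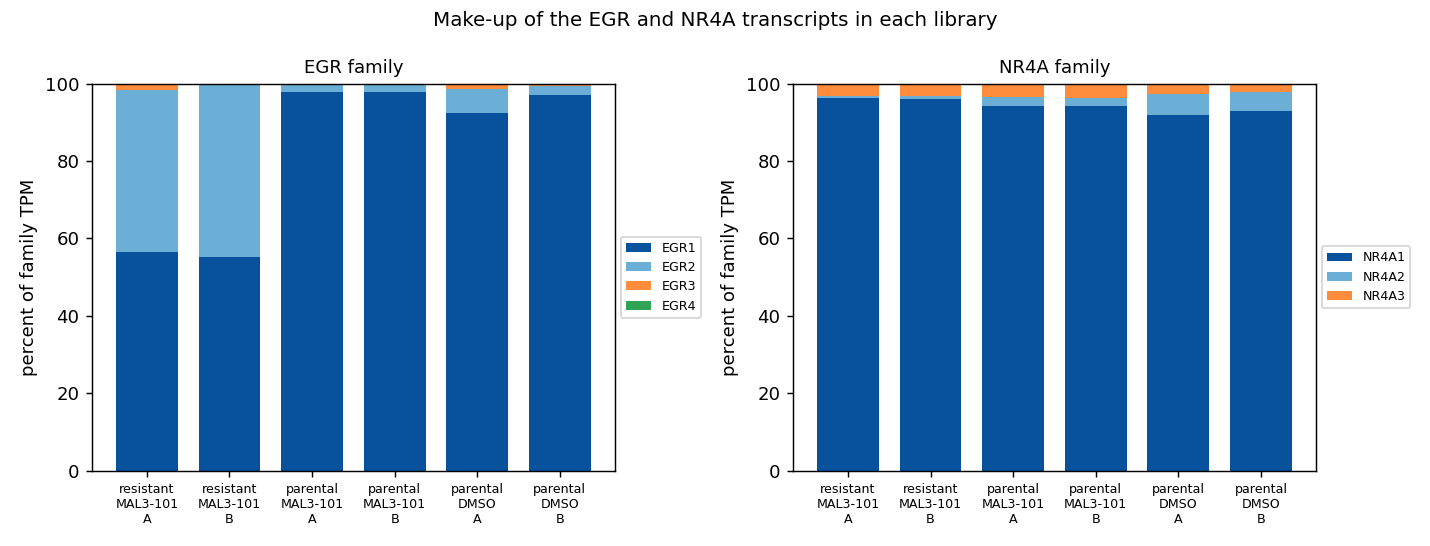
Percent of summed TPM (vertical axis) given by each member of the EGR family (left) and the NR4A family (right) in each of the 6 libraries. EGR1 gives 55.2% and 56.4% of EGR transcripts in the resistant libraries and 92.4% or more in the others, while NR4A1 gives 92.0% to 96.2% of NR4A transcripts in all 6.

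NR4A1, an orphan receptor induced by growth and stress signals, stood at 30.91 and 29.93 TPM in resistant cells with MAL3-101, 68.22 and 61.85 TPM in parental cells with MAL3-101, and 18.99 and 22.66 TPM in parental cells with DMSO. The groups did not overlap, and resistant libraries were intermediate. It rose by 1.60 (SE 0.09, adjusted p = 5.13e-05 by limma) with the drug in parental cells. Resistant cells had -1.07 (SE 0.09, adjusted p = 0.0001) against parental cells with the drug and 0.53 (SE 0.09, adjusted p = 0.00298) against DMSO. The mitochondrial ribosomal RNAs were likewise highest in parental cells with MAL3-101, although all mitochondrial genes together made up 9.57% and 9.25% of TPM in resistant cells, 8.18% and 9.03% in parental cells with MAL3-101, and 8.22% and 9.22% with DMSO, so that the parental groups overlapped. With TPM recomputed without mitochondrial genes the values of NR4A1, in the order of comparisons just given, were 1.60, -1.06 and 0.54.

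NR4A2, best known for its role in dopamine neurons, stood at 0.17 and 0.21 TPM in resistant cells with MAL3-101, 1.55 and 1.51 TPM in parental cells with MAL3-101, and 1.11 and 1.21 TPM in parental cells with DMSO. Resistant libraries were the low ones, and the parental groups lay close together. Parental MAL3-101 against DMSO gave 0.23 (95% interval -0.13 to 0.59, adjusted p = 0.27), which did not pass. Resistant cells had -1.09 (SE 0.15, adjusted p = 0.000845 by limma) against parental cells with the drug and -0.86 (SE 0.15, adjusted p = 0.00299) against DMSO. With a pseudocount of 0.1 TPM these last values were -2.49 and -2.12.

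NR4A3, the remaining receptor of the family, stood at 1.06 and 1.0 TPM in resistant cells with MAL3-101, 2.58 and 2.37 TPM in parental cells with MAL3-101, and 0.54 TPM in both libraries of parental cells with DMSO. Its groups had the same order as those of NR4A1 and EGR2. It rose by 1.17 (SE 0.15, adjusted p = 0.0011 by limma) with the drug in parental cells, and by 2.01 with a pseudocount of 0.1 TPM. Resistant cells had -0.78 (SE 0.15, adjusted p = 0.00345) against parental cells with the drug. Against DMSO they had 0.40 (95% interval 0.05 to 0.74, adjusted p = 0.0566), which did not pass. It was called there in 5 of 15 other settings, with 0.82 (adjusted p = 0.0375) at a pseudocount of 0.1 TPM.

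**Figure D3:**
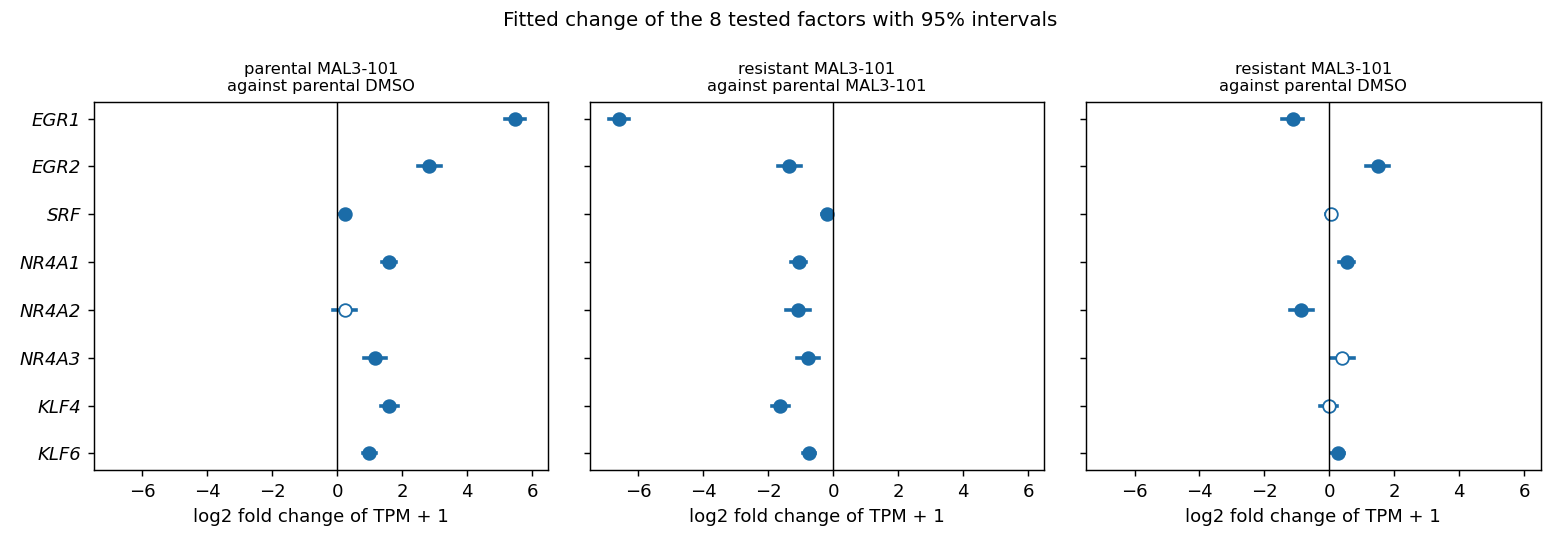
Log2 fold change of TPM + 1 (horizontal axis) of the 8 tested factors in the 3 comparisons, with lines for 95% intervals and filled points for an adjusted p under 0.05. EGR1 moves furthest in the first 2 panels, at 5.47 and -6.61, and in the third it lies on the opposite side of 0 from EGR2, at -1.13 and 1.49.

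KLF4, one of the factors used to reprogramme cells to pluripotency, stood at 5.14 and 4.90 TPM in resistant cells with MAL3-101, 18.19 and 17.11 TPM in parental cells with MAL3-101, and 4.75 and 5.49 TPM in parental cells with DMSO. The parental drug libraries were high, and resistant and DMSO libraries overlapped. It rose by 1.61 (SE 0.11, adjusted p = 0.000102 by limma) with the drug in parental cells, 3.45 times the DMSO mean, and resistant cells had -1.63 (SE 0.11, adjusted p = 3.47e-05) against these. Resistant cells against DMSO gave -0.02 (95% interval -0.28 to 0.24, adjusted p = 0.887), an interval that leaves room for a small difference either way.

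KLF6, a widely expressed relative induced by injury and stress, stood at 20.36 and 19.18 TPM in resistant cells with MAL3-101, 35.08 and 32.35 TPM in parental cells with MAL3-101, and 15.81 and 17.09 TPM in parental cells with DMSO. The groups did not overlap. It rose by 0.99 (SE 0.08, adjusted p = 0.000212 by limma) with the drug in parental cells, and resistant cells had -0.74 (SE 0.08, adjusted p = 0.000266) against these. Against DMSO resistant cells had 0.25 (SE 0.08, adjusted p = 0.0348), a call lost in 7 of 16 other settings, with an adjusted p = 0.198 without resistant library A and 0.0939 without resistant library B.

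SRF stood at 41.61 and 38.80 TPM in resistant cells with MAL3-101, 45.45 and 46.09 TPM in parental cells with MAL3-101, and 37.49 and 40.12 TPM in parental cells with DMSO. The parental drug libraries were the highest, and the other groups overlapped. It had 0.23 (SE 0.07, adjusted p = 0.0259 by limma) for parental MAL3-101 against DMSO and -0.18 (SE 0.07, adjusted p = 0.0456) for resistant against parental MAL3-101. These calls were lost in 9 and 10 of 16 other settings. Median-ratio scaling gave 0.20 (adjusted p = 0.0644) and -0.08 (adjusted p = 0.405), and leaving out parental MAL3-101 library A or B also ended both calls. Resistant cells against DMSO gave 0.05 (95% interval -0.10 to 0.20, adjusted p = 0.551). EGR1, EGR2 and SRF, the members with the CArG boxes printed above, thus had 5.47, 2.84 and 0.23 for parental MAL3-101 against DMSO.

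The order of levels among the members differed between groups. SRF stood highest in resistant cells and with DMSO, followed by NR4A1 and KLF6, while EGR1 stood highest in parental cells with MAL3-101. In resistant cells EGR1 came behind KLF4 and just ahead of EGR2.

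**Figure D4:**
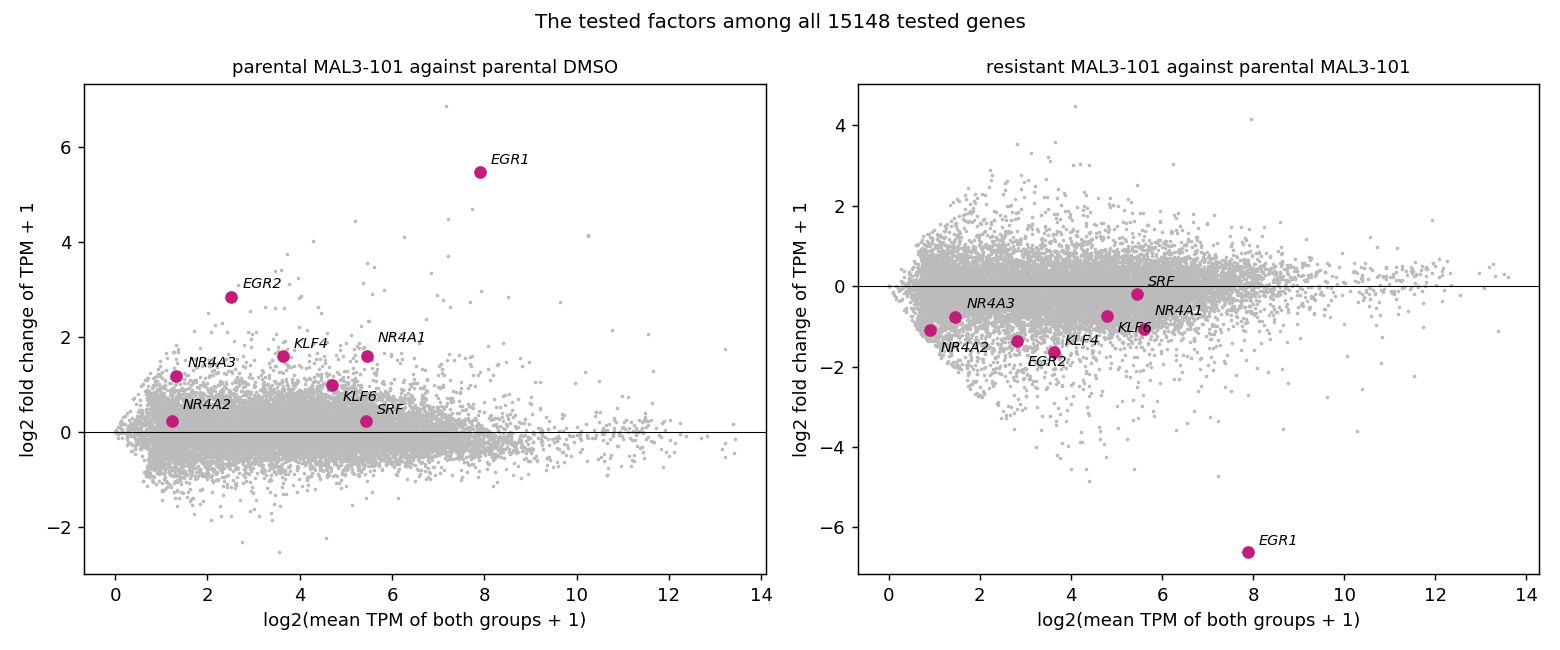
Log2 fold change of TPM + 1 (vertical axis) against the level of each gene (horizontal axis, log scale) for all 15148 tested genes in grey, with the 8 tested factors in colour. EGR1 lies at 5.47, the second-ranked rise, and at -6.61, the first-ranked fall, whereas SRF at 0.23 and -0.18 lies within the grey cloud.

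The partners of these factors moved in other ways. NAB1, a corepressor of EGR proteins, averaged 83.4 ± 1.24 TPM in resistant cells, 62.2 ± 1.85 TPM in parental cells with MAL3-101 and 86 ± 11.2 TPM with DMSO (SD, n = 2). It fell by 0.45 (SE 0.09, adjusted p = 0.00571) with the drug in parental cells and was higher by 0.42 (SE 0.09, adjusted p = 0.005) in resistant than in parental cells with the drug, by limma. NAB2 fell by 0.29 (SE 0.05, adjusted p = 0.00562) with the drug in parental cells, a call lost without parental MAL3-101 library B (adjusted p = 0.0559), and gave 0.09 (SE 0.05, adjusted p = 0.179) for resistant against parental MAL3-101, which did not pass as deposited but did after median-ratio or upper-quartile scaling. RXRA, a dimer partner of NR4A1 and NR4A2, averaged 106 ± 1.81 TPM in resistant cells, 41.2 ± 0.417 TPM in parental cells with MAL3-101 and 37.3 ± 3.89 TPM with DMSO (SD, n = 2). It was higher by 1.35 (SE 0.07, adjusted p = 1.66e-05 by limma) in resistant than in parental cells with the drug, and RXRG by 0.99 (SE 0.16, adjusted p = 0.00181). None of the 3 RXR genes passed for parental MAL3-101 against DMSO, where they had 0.09 to 0.18, although without DMSO library A 2 of them, RXRA and RXRG, did.

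Of 6 SRF cofactors 5 were tested. For resistant against parental MAL3-101 3 were called lower and 0 higher, beside 34.8% and 21.3% of all tested genes. Those lower were the ternary complex factors, ELK4 with -0.997 (SE 0.11, adjusted p = 0.000318 by limma), ELK3 with -0.45 (SE 0.06, adjusted p = 0.000785) and ELK1 with -0.32 (SE 0.07, adjusted p = 0.00495). ELK4 averaged 7.12 ± 0.0778 TPM in resistant cells, 15.3 ± 2.2 TPM in parental cells with MAL3-101 and 12.9 ± 0.424 TPM with DMSO (SD, n = 2). MKL1 and MKL2, the actin-regulated cofactors, had -0.19 and 0.22 and did not pass, MKL2 except after median-ratio or upper-quartile scaling. With the drug in parental cells MKL1 rose by 0.40 (SE 0.11, adjusted p = 0.0199), a call lost in 3 of 16 other settings, among them without parental MAL3-101 library A, and ELK3 fell by 0.39 (SE 0.06, adjusted p = 0.00272).

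Among other Krüppel-like factors, 7 of 11 tested rose and 0 fell with the drug in parental cells, beside 22.6% and 18.2% of all tested genes. Their median log2 fold change was 0.55, beside 0.02 over all tested genes. KLF10, induced by TGF-beta, rose by 1.04 (SE 0.08, adjusted p = 0.000189 by limma) and KLF7 by 0.89 (SE 0.10, adjusted p = 0.000777). For resistant against parental MAL3-101, 4 were higher and 3 lower, beside 21.3% and 34.8% of all tested genes, with a median of -0.05 beside -0.10. Without any 1 of the 4 libraries compared only 1 was called higher, as KLF3, KLF9 and KLF12 were lost. KLF10 had -1.92 (SE 0.08, adjusted p = 6.24e-06) and KLF13 1.07 (SE 0.16, adjusted p = 0.00126), by limma. KLF10 averaged 21.4 ± 0.318 TPM in resistant cells, 83.6 ± 1.94 TPM in parental cells with MAL3-101 and 40.2 ± 4.57 TPM with DMSO (SD, n = 2). Against DMSO 7 were higher and 1 lower in resistant cells, beside 20.9% and 29.7% of all tested genes. The median was 0.81 beside -0.06. KLF9, a glucocorticoid-induced member, had 1.38 (SE 0.15, adjusted p = 0.000344 by limma). The 1 called lower was KLF10, with -0.87 (SE 0.08, adjusted p = 0.000172 by limma).

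Of 31 other serum-induced immediate-early genes tested, 22 rose and 0 fell with the drug in parental cells, beside 22.6% and 18.2% of all tested genes. Their median was 0.71. Without parental MAL3-101 library A only 14 were called higher, and without DMSO library A 3 were called lower. FOS, a partner of JUN in AP-1, rose by 4.44 (SE 0.11, adjusted p = 1.25e-06 by limma), ATF3, a stress-induced factor, by 2.97 (SE 0.06, adjusted p = 7.75e-07) and ZFP36, which promotes decay of AU-rich mRNAs, by 2.09 (SE 0.10, adjusted p = 2.73e-05). For resistant against parental MAL3-101 27 were lower and 2 higher, beside 34.8% and 21.3% of all tested genes, with a median of -1.94. SPRY4, a feedback inhibitor of receptor tyrosine kinase signalling, had -4.54 (SE 0.13, adjusted p = 1.37e-06 by limma) and HBEGF, a ligand of the EGF receptor, -3.36 (SE 0.27, adjusted p = 6.8e-05). Against DMSO 20 were lower and 5 higher in resistant cells, with a median of -0.37, and 13 were lower without resistant library B. Shares over all tested genes there were 29.7% lower and 20.9% higher. SPRY4 had -4.33 (SE 0.13, adjusted p = 2.26e-06 by limma) in that comparison and DUSP6, a phosphatase of ERK, -2.67 (SE 0.10, adjusted p = 5.7e-06), while FOS had 0.63 (SE 0.11, adjusted p = 0.00339). With the drug in parental cells, SPRY4 gave 0.21 (SE 0.13, adjusted p = 0.224 by limma) and DUSP6 -0.07 (SE 0.10, adjusted p = 0.586). Neither passed. The lists were described by counts and medians and not tested as sets.

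Of 9 CREB-regulated genes outside the members that were tested, 4 rose and 0 fell with the drug in parental cells. Shares over all tested genes were 22.6% and 18.2%. The median of the CREB-regulated genes was 0.31. PDE4D, a cyclic AMP phosphodiesterase, rose by 1.38 (SE 0.10, adjusted p = 0.000121 by limma) and PER1, a circadian clock gene, by 1.18 (SE 0.09, adjusted p = 0.000147). For resistant against parental MAL3-101 7 were lower and 1 higher, beside 34.8% and 21.3% of all tested genes, with a median of -0.94. PDE4D had -1.89 (SE 0.10, adjusted p = 1.32e-05 by limma). Against DMSO 5 were lower and 2 higher, beside 29.7% and 20.9% of all tested genes, with a median of -0.49.

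Cytoskeletal targets of SRF and the myocardin-related factors gave 4 rises and 10 falls among 24 with the drug in parental cells, with a median of -0.18, and 6 falls without parental MAL3-101 library A. Shares over all tested genes were 22.6% higher and 18.2% lower. ANKRD1, a stretch-responsive muscle gene, rose by 2.34 (SE 0.26, adjusted p = 0.000689 by limma), with its DMSO libraries apart at 9.64 and 19.28 TPM. FHL2, a LIM domain cofactor, rose by 1.33 (SE 0.06, adjusted p = 2.29e-05 by limma). The largest fall was that of TAGLN, with -1.12 (SE 0.31, adjusted p = 0.0263), whose DMSO libraries lay apart at 26.98 and 60.99 TPM. For resistant against parental MAL3-101 there were 4 higher and 10 lower, beside 21.3% and 34.8% of all tested genes, with a median of -0.21 beside -0.10. VCL (vinculin) had -1.31 (SE 0.08, adjusted p = 2.1e-05 by limma) there. The count of higher ones was 2 without resistant library A or B or parental MAL3-101 library A. Against DMSO 2 were higher and 13 lower in resistant cells, beside 20.9% and 29.7% of all tested genes, with a median of -0.41. TPM1, a tropomyosin gene, had -1.21 (SE 0.08, adjusted p = 3.87e-05 by limma) there. The RAF, MEK, ERK, RSK and MSK kinases gave 2 rises and 2 falls among 12 with the drug in parental cells, beside 22.6% and 18.2%. BRAF rose by 1.25 (SE 0.09, adjusted p = 0.000113 by limma) there and had -1.08 (SE 0.09, adjusted p = 7.18e-05) in resistant against parental cells with the drug. Of these kinases 2 were higher and 4 lower in resistant than in parental cells with the drug, beside 21.3% and 34.8% of all tested genes. In resistant cells against DMSO 3 kinases were higher and 3 lower, beside 20.9% and 29.7%. Counts this small moved by 1 to 2 kinases in many settings, such as 4 higher in resistant than in parental cells with the drug when either DMSO library was left out.

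**Figure D5:**
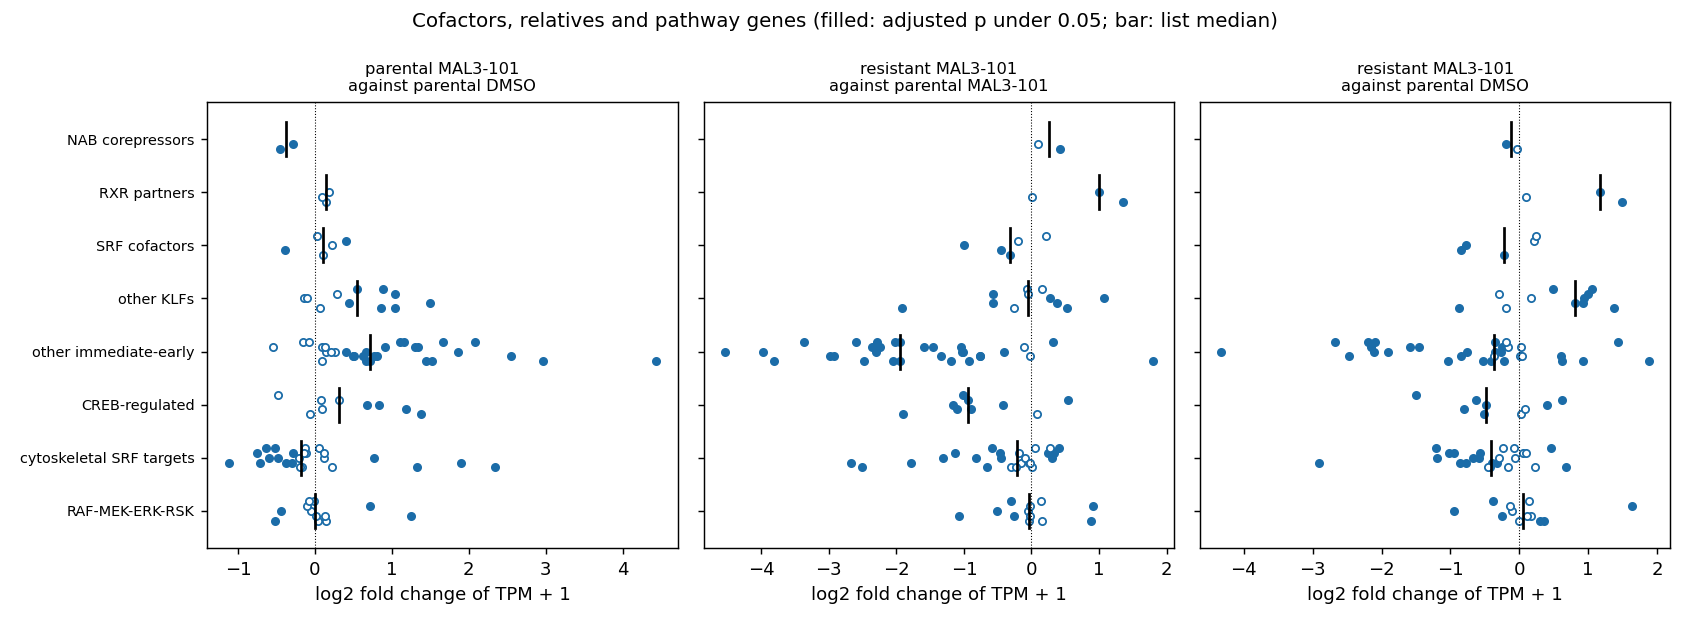
Log2 fold change of TPM + 1 (horizontal axis) of each tested gene of the lists of partners, relatives and pathway genes in the 3 comparisons, filled where the adjusted p was under 0.05, with a bar at the median of each list. The other immediate-early genes have their medians at 0.71, -1.94 and -0.37, and the kinases at 0.00, -0.04 and 0.05.

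Likeness of profiles was measured as the root-mean-square difference between log2(TPM + 1) values centred on each gene's own mean over the 6 libraries, among 10910 genes averaging at least 5 TPM. The nearest to EGR1 were IL8, a chemokine gene, at 1.02, FOS at 1.16 and HSPA1B, an inducible HSP70 gene with a near-identical copy and so of uncertain level, at 1.24. IL8 had 0.36 and 0.31 TPM in resistant cells, 24.22 and 22.77 TPM in parental cells with MAL3-101, and 0.59 and 1.10 TPM with DMSO. The nearest to EGR2 were ASNS, asparagine synthetase, at 0.257, XBP1, a factor of the unfolded protein response, at 0.265 and DDIT4, an inhibitor of mTOR signalling, at 0.284. ASNS had 57.64 and 62.17 TPM in resistant cells, 204.84 and 207.81 TPM in parental cells with MAL3-101, and 24.98 and 15.01 TPM with DMSO. The nearest to NR4A1 were SNHG8 at 0.050, HYOU1, a chaperone of the endoplasmic reticulum, at 0.0723 and the mitochondrial ribosomal RNA MT-RNR2 at 0.0847. NR4A2 lay nearest to ARF4 at 0.0274 and NR4A3 to SLC33A1 at 0.0484. These 2 members are weakly expressed, as was EGR2 with DMSO, at 0.53 and 0.29 TPM. The added 1 TPM flattens such profiles, so a small distance does not mean a like change in TPM. NR4A2 had a mean TPM 8.05 times lower in resistant than in parental cells with the drug. On the log2(TPM + 1) scale this was -1.09, beside -1.06 for ARF4. KLF4 lay nearest to TSC22D3, a glucocorticoid-induced gene, at 0.0489, KLF6 to SNHG11 at 0.0493 and SRF to TM2D1 at 0.0261. All distances rest on the same 6 libraries and are descriptions.

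EGR1 lies on chromosome 5 among genes that were mostly lower in the resistant line. Of its 20 nearest tested neighbours, 10 on each side by RefSeq order, 16 were called lower and 1 higher for resistant against parental MAL3-101, with a median of -0.57. Against DMSO 15 were lower and 0 higher in resistant cells, with a median of -0.53. HSPA9, the mitochondrial HSP70 gene, and ETF1, a translation release factor gene, had -0.68 and -0.85 there, beside -1.13 for EGR1. For parental MAL3-101 against DMSO 6 neighbours rose and 3 fell, with a median of 0.14. Of all tested genes, 34.8% and 29.7% were called lower in the comparisons of resistant cells with parental MAL3-101 and with DMSO. Of the 20 neighbours of NR4A1 on chromosome 12, 11 were lower and 3 higher for resistant against parental MAL3-101, with a median of -0.49. Against DMSO 9 of them were lower and 2 higher, with a median of -0.20. The neighbours of SRF on chromosome 6 had the same counts against DMSO, with a median of -0.19. The neighbours of EGR2 on chromosome 10 had medians of -0.21 for resistant against parental MAL3-101 and -0.01 for resistant MAL3-101 against DMSO, and those of KLF4 on chromosome 9 had 0.12 and 0.22. Those of NR4A2, NR4A3, SRF and KLF6 had medians of -0.16 to 0.08 for resistant against parental MAL3-101 and -0.19 to 0.23 against DMSO. The part of this region in the level of EGR1 was not tested.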

How the data were processed

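RNA-seq of 6 libraries was analysed, 2 in each of 3 groups, taken from the titles for the MAL3-101 samples and from the descriptions for the DMSO samples, whose titles also carry the drug's name. The deposited files hold 1 TPM value, a length-corrected transcript share, per gene and library, rounded to 2 decimals, and the submitters' processing notes name RSEM, DESeq and hg19. Their versions, the annotation and strandedness are not stated there. TPM keeps no depth, so the depth behind a value is unknown and no counting intervals are given. Genes with a group mean of at least 1 TPM in at least 1 group were kept, and log2(TPM + 1) was fitted over all 6 libraries with limma 3.58.1 in R 4.3.3 (moderated test with a trend, Benjamini-Hochberg adjustment, 3 residual and 4.17 prior degrees of freedom). The median SE of a fold change was 0.105. The code was tested on simulated data. The members and the 14 other gene lists were chosen with earlier results of these data known. Every member is named, with genes of short lists, though not all of them. Further genes were named from the 4 largest called changes of a longer list in a comparison, and from the 3 most like a member. KLF3, KLF9 and KLF12 as lost calls, FOS against DMSO, SPRY4 and DUSP6 in parental cells with the drug, single marker genes, and HSPA9 and ETF1 were named after their values were seen. Pseudocounts, filters, scalings, the libraries in the fit, a replicate block and leaving out each library were varied. RefSeq promoters were searched for motifs in Python 3.11.15.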

Additional observations from a re-analysis of the deposited data

How the results depend on the processing

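Of 24 member fold changes, 20 kept their side of the threshold in every alternative run. The 4 that did not were SRF in both comparisons with parental MAL3-101, and KLF6 and NR4A3 in resistant MAL3-101 against DMSO, as given beside them. There were 0 reversals of sign where the main fit or the alternative run called the gene. KLF4 in resistant MAL3-101 against DMSO, not called in any run, lay between -0.11 and 0.07 in the alternative runs. A group mean of 5 TPM leaves out NR4A2 and NR4A3, which then have no value. Leaving out 1 library at a time moved the counts of all genes. For parental MAL3-101 against DMSO, 3169 to 7684 genes were called, 1801 to 4513 higher and 1368 to 3458 lower, against 6181, 3429 and 2752 with all libraries, the lowest without parental MAL3-101 library A, and 3397, 1936 and 1461 without library B. For resistant against parental MAL3-101, 2124 to 3963 were higher, against 3228, the lowest without resistant library B. For resistant MAL3-101 against DMSO, 5001 to 8640 were called, 1917 to 3931 higher and 2981 to 5069 lower, against 7662, 3160 and 4502, the lowest without resistant library A or B. Where a group was left with 1 library, that library is assumed to vary like the other groups. An upper quartile over all genes above 0, chosen after seeing the data, gave 4317 genes lower for parental MAL3-101 against DMSO and a share of 35.4% higher calls against 55.5%. The cause was not tested. With the library letter as a replicate block, 5942 genes were called for parental MAL3-101 against DMSO, 8381 for resistant against parental MAL3-101 and 7492 for resistant MAL3-101 against DMSO. Deviations of same-lettered libraries correlated at -0.021 to 0.026 over genes, so the letters give no sign of pairing, and of the member calls the block ended only SRF for resistant against parental MAL3-101 (adjusted p = 0.0639). Depth is unknown, so members under 1 TPM, such as EGR3, cannot be given a detection limit.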
